A study of Mus musculus with 2 samples.

Results

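Rhov encodes an atypical small GTPase, one of the molecular switches that organise the actin cytoskeleton, and it was read here in neutrophils, the granulocytes that enter inflamed tissue first. The cells described are the neutrophils of mouse gingiva, the gum around the teeth, that carried 2 or more Rhov UMIs (unique molecular identifiers, each counting 1 captured RNA molecule). They were taken from 2 deposited libraries after keeping barcodes with at least 500 UMIs, at least 250 genes and at most 10% mitochondrial UMIs. A kept cell counted as a neutrophil when S100a8 and S100a9, the calprotectin subunits that fill neutrophil cytoplasm, made up at least 3% of its UMIs. It also had at most 1 UMI of Fn1, Vcan, Ccr2, C1qa, C1qb and Cd79a together, which mark monocytes, macrophages and B cells, at most 1 UMI of Siglecf, and less than 1% of its UMIs from Camp, Ltf and Ngp, the granule genes of immature neutrophils. The rule left 436 Rhov ≥2 neutrophils among 8243 neutrophils and 21268 kept cells, namely 341 of 3744 neutrophils in the 10% Tet2-/- library and 95 of 4499 in the 10% Tet2+/+ library. The cells were thus chosen by their measured Rhov, S100a8, S100a9 and other marker UMIs, and the levels of these genes are given as description only.

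Both groups of mice were bone marrow transplant (BMT) recipients in which 10% of the donor marrow was of the named Tet2 genotype, Tet2-/- in one group and Tet2+/+ in the other. Tet2 starts the removal of methyl groups from DNA by oxidising them, and its loss in blood stem cells underlies a common form of clonal haematopoiesis. All recipients had ligature-induced periodontitis (LIP), a tooth-tying model of gum inflammation, for 5 days, begun 12 weeks after transplantation, so no group without ligature enters these comparisons. The gingival cells were sorted as CD45.2+CD11b+ in the Tet2-/- group and, by the protocol, as CD45+CD11b+ in the Tet2+/+ group, although the title of that sample also names CD45.2. Genotype and sort gate therefore cannot be told apart, and nothing in the files marks which cells descend from Tet2-/- marrow. Tet2 itself stood at 213 and 148 CPM (UMIs of a gene scaled to a common total of UMIs) in Rhov ≥2 and Rhov 0 neutrophils (no Rhov UMI) of the 10% Tet2-/- library and at 184 and 117 CPM in those of the 10% Tet2+/+ library. The labels do not name the exons removed from Tet2, so these 3′ counts do not check the genotype. The labels do not say how many mice gave each library. With 1 library per group there is no replicate spread, no test between groups was possible, and every interval below is a 95% interval that covers counting error only.

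Neutrophils use their secreted proteins to shape gum inflammation. Chemokines such as Cxcl2, Ccl3 and Ccl4 draw in further neutrophils and monocytes, interleukin-1 beta amplifies the reaction, and Il1rn encodes the receptor antagonist that blocks interleukin-1 signalling. Spp1 encodes osteopontin, a secreted matrix protein and cytokine, and Asprv1 encodes a retroviral-like aspartic protease first described in skin. These 3 genes were named as markers of the Rhov-positive cells together with Rhov.

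The promoter sequences of Rhov and its 3 companion genes are shown because the genes are read together in what follows. The RefSeq table of the GRCm38.p6 build gave the 250 bases before each annotated start, on the strand of the gene. They lie at chr2:119271227-119271476 on the minus strand for Rhov and, on the plus strand, at chr2:24336610-24336859 for Il1rn (the first of 3 listed starts), chr5:104434861-104435110 for Spp1 (the first of 2) and chr6:86627924-86628173 for Asprv1. Capitals mark matches, on either strand, to AP-1 (TGANTCA), the cyclic AMP response element (TGACGTCA), the antioxidant response element (TGACNNNGC), 2 TATA box spellings (TATAAA and TATATA), the GC box (GGGCGG), an NF-kB site and the E box (CACGTG).
Rhov: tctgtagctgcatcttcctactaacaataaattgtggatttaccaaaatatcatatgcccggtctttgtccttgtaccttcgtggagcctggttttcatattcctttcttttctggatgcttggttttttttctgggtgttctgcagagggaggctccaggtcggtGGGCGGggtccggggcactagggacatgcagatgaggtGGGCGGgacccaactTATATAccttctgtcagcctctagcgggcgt
Il1rn: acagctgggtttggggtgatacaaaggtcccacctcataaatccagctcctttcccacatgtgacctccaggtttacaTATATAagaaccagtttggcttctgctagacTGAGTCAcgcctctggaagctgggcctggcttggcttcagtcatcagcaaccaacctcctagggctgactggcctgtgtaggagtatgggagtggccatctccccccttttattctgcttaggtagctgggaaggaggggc
Spp1: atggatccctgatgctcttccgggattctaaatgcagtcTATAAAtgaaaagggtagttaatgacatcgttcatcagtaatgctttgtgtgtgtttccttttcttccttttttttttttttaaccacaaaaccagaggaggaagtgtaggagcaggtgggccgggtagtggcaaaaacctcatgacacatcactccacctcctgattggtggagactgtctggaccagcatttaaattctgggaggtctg
Asprv1: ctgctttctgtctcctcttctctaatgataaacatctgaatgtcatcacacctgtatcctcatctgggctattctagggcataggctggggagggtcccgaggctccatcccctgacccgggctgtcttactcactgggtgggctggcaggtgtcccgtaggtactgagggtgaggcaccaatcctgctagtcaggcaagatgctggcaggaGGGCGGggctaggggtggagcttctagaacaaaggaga
Counting back from the start, Rhov had GC boxes at bases -84 to -79 and -46 to -41 and TATATA at -31 to -26. GENCODE places the Rhov start further upstream, at base 119271272 and thus inside this window. By that start TATATA lies within the transcript, so its place before the start holds for the RefSeq annotation only. Asprv1 had 1 GC box at -38 to -33, Il1rn had TGAGTCA at -141 to -135 and TATATA at -172 to -167, and Spp1 had TATAAA at -211 to -206. None of the 8 motifs was found in all of these windows. Among 32851 windows of the same length, the GC box was present in 32.7%, TATAAA in 12.4%, AP-1 in 6.75% and TATATA in 5.25%, so matches of these kinds are common.

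Rhov-positive neutrophils were a larger share of the neutrophils in the 10% Tet2-/- library. The share with 2 or more Rhov UMIs was 9.11% (8.21 to 10.1%, exact binomial) in the 10% Tet2-/- library and 2.11% (1.71 to 2.58%) in the 10% Tet2+/+ library. A single Rhov UMI was found in a further 410 neutrophils of the 10% Tet2-/- library and 206 of the 10% Tet2+/+ library, and 2993 and 4198 neutrophils of these libraries had none. Just inside the cut lay 169 and 55 cells with exactly 2 Rhov UMIs in the Tet2-/- and Tet2+/+ libraries, and the highest cells reached 10 and 6 UMIs. Members and Rhov 0 neutrophils had like depth, with medians of 3869 and 3878 UMIs in the 10% Tet2-/- library and 4148 and 3854.5 UMIs in the 10% Tet2+/+ library. With every neutrophil thinned to 2000 UMIs, leaving out 233 and 428 shallower cells, the share was 4.30% in the 10% Tet2-/- library and 0.811% in the 10% Tet2+/+ library.

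The higher Rhov level of the 10% Tet2-/- library was not limited to neutrophils. Rhov stood at 86.9 CPM in 10% Tet2-/- neutrophils and 23.4 CPM in 10% Tet2+/+ neutrophils, a ratio of 3.72 (3.34 to 4.14). In cells with monocyte or macrophage genes it stood at 12.6 CPM in the 10% Tet2-/- library and 4.48 CPM in the 10% Tet2+/+ library, a ratio of 2.82 (2.38 to 3.36). B cells, taken as cells with 2 or more Cd79a UMIs, are not known for Rhov and gave 11.4 CPM in the 10% Tet2-/- library and 4.33 CPM in the 10% Tet2+/+ library, a ratio of 2.64 (1.69 to 4.20). Barcodes with 1 to 50 UMIs, which hold free RNA, gave 41.5 CPM in the 10% Tet2-/- library and 11.4 CPM in the 10% Tet2+/+ library, a ratio of 3.63 (2.30 to 5.94). The interval of the neutrophil ratio overlapped that of the empty barcodes. An estimate from haemoglobin and immunoglobulin genes put free RNA at 1.27% of neutrophil UMIs in the 10% Tet2-/- library and 12.2% in the 10% Tet2+/+ library. Estimated per group, it was 1.33% in members and 1.21% in Rhov 0 cells of the 10% Tet2-/- library. In the 10% Tet2+/+ library these values were 0% and 12.3%. The part of free RNA in the Rhov difference between libraries was not tested.

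Within each library, neutrophils were a larger part of the Rhov ≥2 cells than of all kept cells. Of the 534 and 149 kept cells with 2 or more Rhov UMIs in the 10% Tet2-/- and 10% Tet2+/+ libraries, 63.9% and 63.8% were neutrophils by the rule. Among all kept cells of these libraries, 3744 of 9596 and 4499 of 11672 were neutrophils by the rule. Cells with 2 or more UMIs of the monocyte or macrophage rule genes made up 23.8% and 20.8% of the Rhov ≥2 cells. B cells passed the Rhov cut at 3.48% in the 10% Tet2-/- library (median depth 8459 UMIs) and 0.678% in the 10% Tet2+/+ library (6922 UMIs). They were deeper than the neutrophils, and whether they measure the background share of Rhov was not tested. After thinning to 2000 UMIs, 0 of 482 B cells of the 10% Tet2-/- library and 0 of 714 of the 10% Tet2+/+ library passed it, which allows shares of up to 0.622% and 0.420%. The thinned neutrophil shares above lay over these limits in both libraries.

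**Figure D1:**
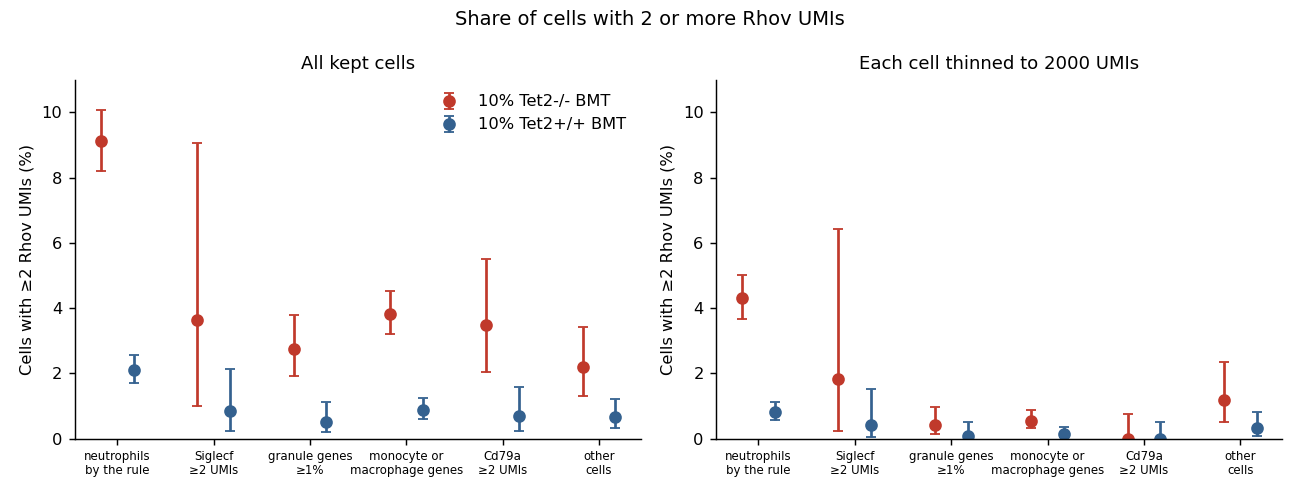
Percent of cells with 2 or more Rhov UMIs (vertical axis) by kind of cell (horizontal axis), in all kept cells (left) and with each cell thinned to 2000 UMIs (right). Points are single libraries, 10% Tet2-/- BMT left of 10% Tet2+/+ BMT in each pair, and bars are exact 95% binomial intervals. Neutrophils by the rule are highest in both libraries, at 9.11% and 2.11% unthinned.

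Xist and Y-linked transcripts were both present in the 10% Tet2-/- library, and Xist-only neutrophils were not found in the 10% Tet2+/+ library. In the 10% Tet2-/- library, 786 neutrophils had Xist UMIs and no Y-gene UMIs and 155 had the reverse, while in the 10% Tet2+/+ library 0 and 2326 did. The Rhov ≥2 share was 8.52% in Xist-only and 10.3% (6.02 to 16.2%) in Y-only neutrophils of the 10% Tet2-/- library, and 2.15% in Y-only neutrophils of the 10% Tet2+/+ library. The Y-only cells of the 2 libraries thus differed in the same direction as all cells. The libraries shared the barcodes of 31 kept cells, and no Rhov ≥2 barcode was a member in both.

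The neutrophil identity of the Rhov ≥2 cells was read on genes mostly outside the rule. Csf3r, the receptor for the neutrophil growth factor G-CSF, stood at 1528 CPM in Rhov ≥2 cells and 1439 CPM in Rhov 0 neutrophils of the 10% Tet2-/- library, and at 1463 and 1649 CPM in those of the 10% Tet2+/+ library. Cxcr2, the receptor for Cxcl2, stood at 934 and 1156 CPM in the 10% Tet2-/- library and 1186 and 1462 CPM in the 10% Tet2+/+ library, again in Rhov ≥2 and Rhov 0 cells. These 2 genes were thus present at like levels in members and in other neutrophils, but not all neutrophil genes were. Of 14 neutrophil identity genes eligible in the contrast below, 3 were called higher and 2 lower in members of both libraries. The shares over all eligible genes were 6.47% and 2.44%. Ly6g and Retnlg, given below, were lower in members of both libraries. Keratinocyte genes, listed because Rhov and Asprv1 are known from skin, summed to 48.3 CPM in members and 19.4 CPM in Rhov 0 cells of the 10% Tet2-/- library, and to 13.0 and 21.1 CPM in those of the 10% Tet2+/+ library. Of these 20 genes, 11 had a UMI in Tet2-/- members and 4 in Tet2+/+ members, and no keratin gene of the list had more than 2 UMIs in either. Most of the sum in Tet2-/- members came from Sfn, with 29 UMIs, and Epcam, with 26 UMIs, or 17.0 CPM against 4.50 CPM in Rhov 0 cells, 61.5% of them in 1 cell. Csf1r, a defining macrophage gene, stood at 67.9 and 77.0 CPM in members and Rhov 0 cells of the 10% Tet2-/- library and at 82.2 and 88.3 CPM in those of the 10% Tet2+/+ library. The whole list of 17 monocyte and macrophage genes summed to 1025 and 1245 CPM in the 10% Tet2-/- library and to 1435 and 1264 CPM in the 10% Tet2+/+ library, in members and Rhov 0 cells. Of these 17 genes, 12 lie outside the rule. The rest (Fn1, Vcan, Ccr2, C1qa and C1qb) are capped by the rule in both sets of cells, so their part of the sums was limited in advance.

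Of the marker genes, Il1rn was carried by most Rhov ≥2 cells and Spp1 by a minority. Il1rn had a UMI in 85.6% of members of the 10% Tet2-/- library and 77.9% of members of the 10% Tet2+/+ library, Asprv1 in 46.3% and 36.8%, and Spp1 in 15.2% and 14.7%. All 3 were seen together in 6.74% (4.32 to 9.95%) of members in the 10% Tet2-/- library and 5.26% (1.73 to 11.9%) in the 10% Tet2+/+ library, and none of them in 7.62% and 11.6%. Thinned to 2000 UMIs, Il1rn was detected in 72.5% of members and 45.1% of Rhov 0 neutrophils of the 10% Tet2-/- library, and in 58.9% and 38.2% of those of the 10% Tet2+/+ library. Thinned Asprv1 detection was closer, at 38.1% (32.8 to 43.5%) in members and 33.4% (31.7 to 35.2%) in Rhov 0 cells of the 10% Tet2-/- library, intervals that overlap, and 31.6% and 18.6% in those of the 10% Tet2+/+ library. B cells, given for comparison, had thinned shares of 13.3% for Il1rn and 6.64% for Asprv1 in the 10% Tet2-/- library. Thinned Spp1 was detected in 10.3% of members, 6.04% of Rhov 0 cells and 3.73% of B cells of the 10% Tet2-/- library. In the 10% Tet2+/+ library these shares were 10.5%, 4.16% and 2.24%. Unthinned, 13.9% of the deeper B cells of the 10% Tet2-/- library had a Spp1 UMI, close to the share of members. Spp1 thus marked a small fraction of the Rhov ≥2 cells, which are named below by Rhov.

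**Figure D2:**
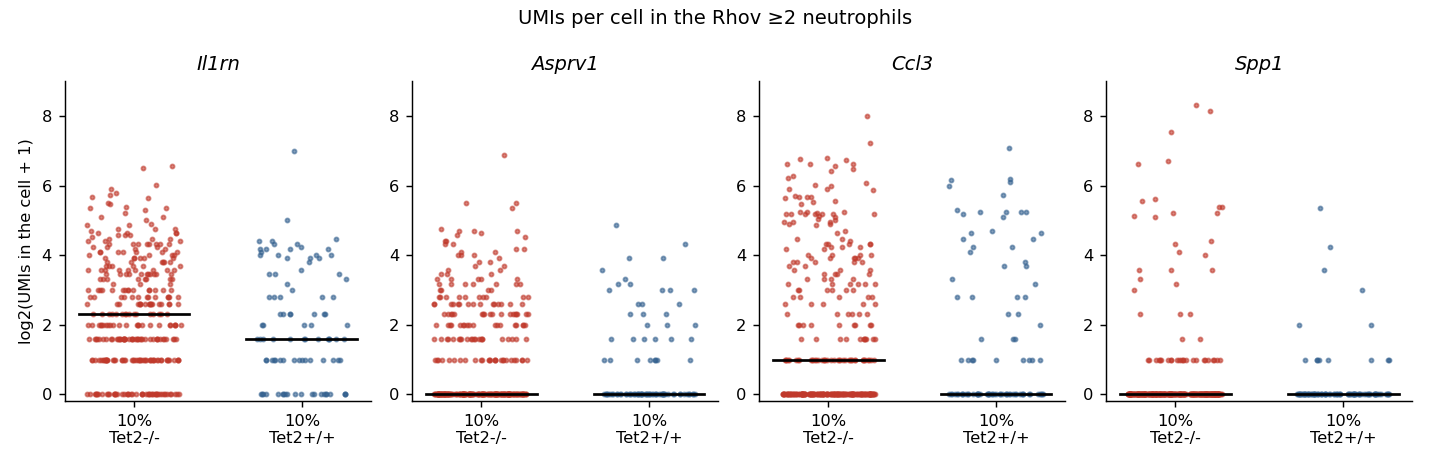
UMIs of Il1rn, Asprv1, Ccl3 and Spp1 in each Rhov ≥2 neutrophil, as log2(UMIs + 1), with the 10% Tet2-/- BMT library left of the 10% Tet2+/+ BMT library. Each point is 1 cell (341 and 95 cells, spread sideways for visibility) and the black line is the median, which is 0 UMIs for Asprv1 and Spp1 in both libraries, while the highest Spp1 cells reach 317 and 40 UMIs.

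The contrast of Rhov ≥2 with Rhov 0 neutrophils was made inside each library, on summed UMIs. Genes counted as eligible with at least 50 CPM in either group and 30 UMIs over both groups in each library, and a gene was called past 1.5-fold on a scale of log2(CPM + 10). Of 2133 eligible genes, 10.5% were called higher and 10.3% lower in Rhov ≥2 cells of the 10% Tet2-/- library, and 8.49% higher and 8.2% lower in those of the 10% Tet2+/+ library. Calls the same way in both libraries made up 6.47% (138 genes) higher and 2.44% (52 genes) lower, while median-of-ratios scaling called 181 higher and 25 lower. The median log2 ratio over the eligible genes was -0.13 in the 10% Tet2-/- library and -0.09 in the 10% Tet2+/+ library, so values below are to be read against a median slightly under 0.

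Chemokine genes were the clearest companions of Rhov. Ccl3, which encodes macrophage inflammatory protein 1 alpha (chr11:83647844-83649355, mm10), stood at 2452 CPM in Rhov ≥2 cells and 631 CPM in Rhov 0 cells of the 10% Tet2-/- library, 3.88-fold higher (3.74 to 4.04). In the 10% Tet2+/+ library it stood at 2132 CPM in Rhov ≥2 cells and 435 CPM in Rhov 0 cells, 4.91-fold higher (4.59 to 5.24). Its neighbour Ccl4, which encodes the related protein 1 beta, stood at 2937 and 981 CPM in Rhov ≥2 and Rhov 0 cells of the 10% Tet2-/- library and at 2208 and 518 CPM in those of the 10% Tet2+/+ library. Cxcl2, the most abundant of the group and a neutrophil attractant, stood at 35686 CPM in Rhov ≥2 and 16500 CPM in Rhov 0 cells of the 10% Tet2-/- library, and at 26206 and 10897 CPM in those of the 10% Tet2+/+ library. Of 5 eligible chemokine genes, 4 were called higher in both libraries and none lower. The remaining one, Ccl6, stood at 2216 and 2397 CPM in the 10% Tet2-/- library and 2002 and 1918 CPM in the 10% Tet2+/+ library. Ccl5, a chemokine gene that was not eligible, was lower in members, which held 10 and 1 of its UMIs. Without cells with 10 or more primary granule UMIs (described below), it stood at 6.53 and 34.0 CPM in the 10% Tet2-/- library. In the 10% Tet2+/+ library it stood at 2.28 and 87.2 CPM.

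Genes of the interleukin-1 family were also higher, the antagonist far more than interleukin-1 beta. Il1rn (chr2:24336853-24351494) stood at 1883 CPM in Rhov ≥2 and 584 CPM in Rhov 0 cells of the 10% Tet2-/- library, 3.22-fold higher (3.09 to 3.37). In the 10% Tet2+/+ library it stood at 1411 and 400.0 CPM, 3.53-fold higher (3.25 to 3.82), and 1 cell held 125 of the 652 member UMIs. Without that cell the Tet2+/+ members stood at 1149 CPM. Il1b, the agonist, was 1.23-fold higher (1.21 to 1.24) in the 10% Tet2-/- library and 1.28-fold higher (1.25 to 1.31) in the 10% Tet2+/+ library, and was not called. Il1a, the membrane-associated agonist, stood at 275 and 99.4 CPM in Rhov ≥2 and Rhov 0 cells of the 10% Tet2-/- library and at 143 and 75.8 CPM in those of the 10% Tet2+/+ library. In all, 4 of 7 eligible family genes were called higher in both libraries (Il1rn, Il1a, Il1f9 and Il1rap) and none lower, with medians of 1.02 and 0.66 on the log2 scale in the Tet2-/- and Tet2+/+ libraries.

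The other cytokine genes called higher in both libraries were Tnf, Csf1 and Tnfsf14, 3 of 5 eligible. Tnf, the gene of tumour necrosis factor, stood at 336 and 139 CPM in Rhov ≥2 and Rhov 0 cells of the 10% Tet2-/- library and at 134 and 76.0 CPM in those of the 10% Tet2+/+ library. Csf1, the macrophage growth factor, stood at 621 and 279 CPM in the 10% Tet2-/- library and at 348 and 176 CPM in the 10% Tet2+/+ library. Osm, encoding oncostatin M, lay below the 1.5-fold limit at 1248 and 854 CPM in the 10% Tet2-/- library and 1052 and 781 CPM in the 10% Tet2+/+ library.

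The immediate early genes, which respond to stimuli within minutes, split within the list. Nr4a3, a nuclear receptor, stood at 200 and 64.7 CPM in Rhov ≥2 and Rhov 0 cells of the 10% Tet2-/- library and at 164 and 44.9 CPM in those of the 10% Tet2+/+ library. Atf3, Ier3, Jun and Maff were also called higher in both, making 5 of 16 eligible genes, with none lower. Fos stood at 1748 and 2170 CPM in the 10% Tet2-/- library and 2000 and 2533 CPM in the 10% Tet2+/+ library, and Junb at 5162 and 5138 CPM and at 4963 and 4997 CPM. Among NF-kB targets and feedback inhibitors, 4 of 16 eligible genes were called higher in both libraries (Nfkbia, Nfkbib, Nfkb1 and Traf1) and none lower. Nfkbia, which encodes the inhibitor IkB alpha, stood at 5454 and 2974 CPM in the 10% Tet2-/- library and at 4121 and 2278 CPM in the 10% Tet2+/+ library. Of 7 eligible survival genes, Bcl2a1b, Bcl2l11 and Gadd45b were called higher in both, and they include both a protector and a promoter of cell death, Bcl2a1b and Bcl2l11.

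Oxidative stress and iron genes formed a further group, with 6 of 10 eligible genes higher in both libraries and none lower. Hmox1, which encodes the haem-degrading enzyme haem oxygenase 1, stood at 194 and 61.0 CPM in Rhov ≥2 and Rhov 0 cells of the 10% Tet2-/- library and at 156 and 57.0 CPM in those of the 10% Tet2+/+ library. Slc7a11, the cystine importer, stood at 2095 and 1049 CPM in the 10% Tet2-/- library and at 1221 and 614 CPM in the 10% Tet2+/+ library. Fth1, the ferritin heavy chain, stood at 29248 and 14402 CPM in the 10% Tet2-/- library and at 15733 and 9896 CPM in the 10% Tet2+/+ library. Gsr and Txn1, 2 other redox genes of the list, were not called in either library.

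Ctsz, a lysosomal cathepsin, stood at 379 and 122 CPM in Rhov ≥2 and Rhov 0 cells of the 10% Tet2-/- library and at 387 and 120 CPM in those of the 10% Tet2+/+ library. With Ctsb, Cd68 and Cstb it made 4 of 14 eligible lysosomal genes called higher in both, and none was lower in both. Of 8 eligible checkpoint and suppressive genes, 2 were higher in both (Acod1 and Cd274) and none lower, and of 6 eligible lipid and scavenger genes, 2 (Olr1 and Hcar2). Cd14, a co-receptor for bacterial lipopolysaccharide, stood at 4144 and 1715 CPM in the 10% Tet2-/- library and at 3643 and 1254 CPM in the 10% Tet2+/+ library. Acod1, which makes itaconate, stood at 4262 and 1615 CPM in the 10% Tet2-/- library and at 3015 and 998 CPM in the 10% Tet2+/+ library. Hcar2, a receptor for hydroxybutyrate and niacin, was 2.53-fold (2.40 to 2.67) and 3.21-fold (2.90 to 3.54) higher in the Tet2-/- and Tet2+/+ libraries, and Cd274, encoding the checkpoint ligand PD-L1, stood at 180 and 68.5 CPM in the 10% Tet2-/- library and at 126 and 48.5 CPM in the 10% Tet2+/+ library. Arid5b, Mapk6, Ifrd1, Rgcc and Sgms2 completed the 15 named higher genes, with ratios between 2.66-fold and 3.28-fold in the 10% Tet2-/- library and between 3.65-fold and 4.21-fold in the 10% Tet2+/+ library.

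Several genes of circulating, granule-rich neutrophils were lower in the Rhov ≥2 cells. Retnlg, a resistin-like secreted protein of blood neutrophils, stood at 6545 CPM in Rhov ≥2 and 18377 CPM in Rhov 0 cells of the 10% Tet2-/- library, a ratio of 0.356 (0.349 to 0.363). In the 10% Tet2+/+ library it stood at 8571 CPM in Rhov ≥2 and 15269 CPM in Rhov 0 cells, a ratio of 0.561 (0.544 to 0.579). Mmp8, the neutrophil collagenase, stood at 385 and 1263 CPM in the 10% Tet2-/- library and at 491 and 1065 CPM in the 10% Tet2+/+ library. Ly6g, the surface protein by which mouse neutrophils are sorted, stood at 68.5 and 252 CPM in the 10% Tet2-/- library and at 143 and 254 CPM in the 10% Tet2+/+ library. Of 18 eligible genes of the maturation list, 7 were called lower in both libraries and 1 higher, which was Slpi, a protease inhibitor, at 2590 and 1593 CPM in the 10% Tet2-/- library and 3905 and 2452 CPM in the 10% Tet2+/+ library. Of 9 eligible secondary and tertiary granule genes, 4 were lower in both (Lcn2, Chil3, Lyz2 and Mmp8) and none higher. The other named lower genes were Adpgk, Ckap4, Far1, Ceacam10, Rab3d, Eid1, Rflnb, D1Ertd622e, Mpc2, Bmx, Dock8 and Gsdme, with ratios from 0.215 to 0.547 in the 10% Tet2-/- library and from 0.412 to 0.544 in the 10% Tet2+/+ library.

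**Figure D3:**
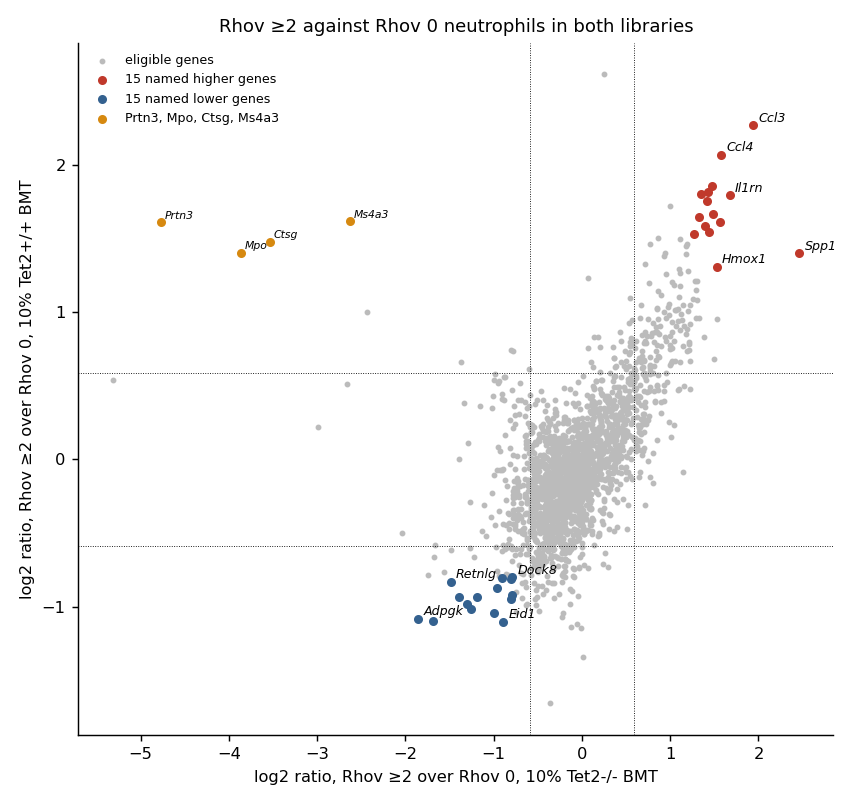
Log2 ratio of (CPM + 10) in Rhov ≥2 over Rhov 0 neutrophils for each eligible gene except Rhov, in the 10% Tet2-/- BMT library (horizontal) and the 10% Tet2+/+ BMT library (vertical), with dotted lines at 1.5-fold. Red and blue points are the 15 named higher and 15 named lower genes, some of them lettered, and orange points are Prtn3, Mpo, Ctsg and Ms4a3, which lie past the limit in opposite directions.

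Interferon-stimulated genes differed in their calls between the libraries. Of 13 eligible genes, 2 were higher and none lower in Rhov ≥2 cells of the 10% Tet2-/- library, and 1 was higher and 4 lower in those of the 10% Tet2+/+ library, a difference that was not tested. Isg20, an exonuclease, was higher in both, and the lower genes included Irf7, Slfn1 and Slfn5. Rhob stood at 378 CPM in Rhov ≥2 and 165 CPM in Rhov 0 cells of the 10% Tet2-/- library, against 169 and 180 CPM in those of the 10% Tet2+/+ library.

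Near Rhov on chromosome 2 (gene body chr2:119269201-119271272, minus strand), its neighbour Vps18, 17468 bases away, was higher in the same cells. Vps18, a subunit of a vesicle-tethering complex, stood at 77.0 and 22.3 CPM in Rhov ≥2 and Rhov 0 cells of the 10% Tet2-/- library and at 49.8 and 16.5 CPM in those of the 10% Tet2+/+ library. It missed the eligibility limit by its level in the 10% Tet2+/+ library and was named after its values were seen. Spint1, on the other side and 19674 bases away, had 3 UMIs in Tet2-/- members and 0 in Tet2+/+ members.

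Il1rn and Ccl3 were higher, and Retnlg lower, in cells with 1 Rhov UMI than in cells with none, so the differences did not begin at the cut. In the 10% Tet2-/- library the order did not hold beyond 3 UMIs for every gene. There Tnf stood at 476 CPM (409 to 551) at 3 Rhov UMIs and 329 CPM (277 to 388) at 4 or more, and Hmox1 at 325 and 195 CPM. Il1rn stood at 584, 1163, 1498, 2445 and 2037 CPM in Tet2-/- neutrophils with 0, 1, 2, 3 and 4 or more Rhov UMIs, and at 400.0, 704, 864, 2180 and 2179 CPM in Tet2+/+ neutrophils. Retnlg stood at 18377, 12397, 7524, 5427 and 5885 CPM in Tet2-/- neutrophils over the same steps and at 15269, 14850, 10249, 6877 and 4730 CPM in Tet2+/+ neutrophils. The cells just outside the cut, with 1 Rhov UMI, thus lay between the Rhov 0 cells and those with 2 for both genes. Asprv1 also rose over 0, 1 and 2 Rhov UMIs in both libraries but had no steady order above 2. It stood at 480, 613, 801, 592 and 874 CPM in Tet2-/- neutrophils and 199, 253, 356, 639 and 236 CPM in Tet2+/+ neutrophils. The upper steps of the 10% Tet2+/+ library rest on 26 and 14 cells.

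**Figure D4:**
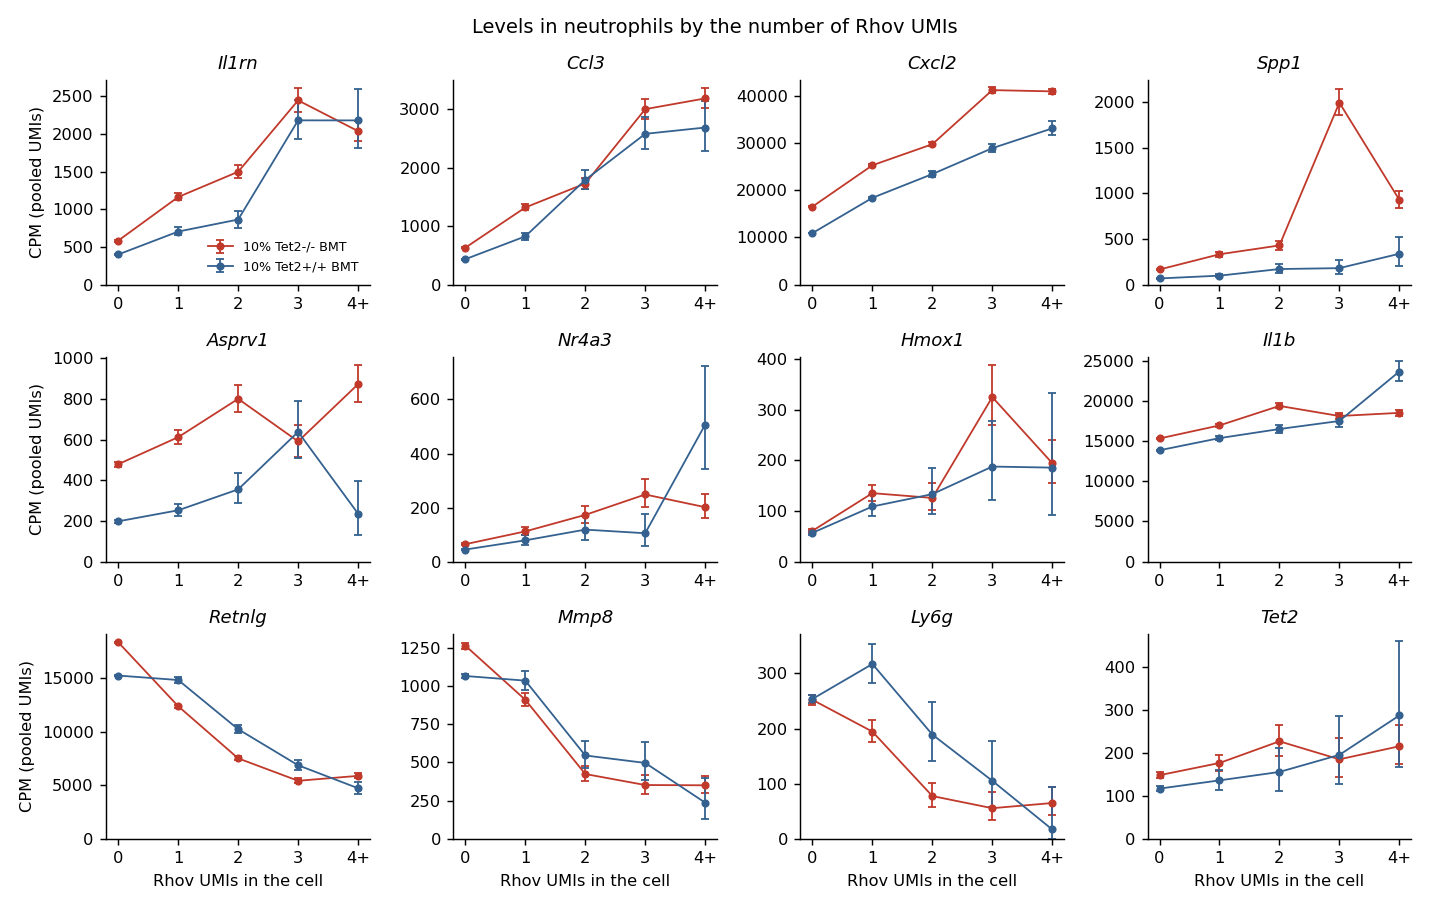
CPM of 12 genes on summed UMIs (vertical axes, from 0) in neutrophils with 0, 1, 2, 3 and 4 or more Rhov UMIs (horizontal axes), for the 10% Tet2-/- BMT (red) and 10% Tet2+/+ BMT (blue) libraries. Bars are exact 95% Poisson intervals. Il1rn, Ccl3 and Cxcl2 are lowest and Retnlg and Mmp8 highest at 0 Rhov UMIs in both libraries.

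Spp1 behaved differently from the other markers, because a few cells held most of it. Spp1 (chr5:104435118-104441050) stood at 956 CPM in Rhov ≥2 and 166 CPM in Rhov 0 cells of the 10% Tet2-/- library, and at 195 and 67.7 CPM in those of the 10% Tet2+/+ library. In the 10% Tet2-/- library, 20 of 341 members had 10 or more Spp1 UMIs and together held 95.6% of the members' Spp1, and in the 10% Tet2+/+ library 3 of 95 members held 76.7%. The single highest cell held 317 of 1465 and 40 of 90 UMIs in the Tet2-/- and Tet2+/+ libraries. Without it the members stood at 751 CPM in the 10% Tet2-/- library and at 109 CPM (81.0 to 144) in the 10% Tet2+/+ library, so the Tet2+/+ value rests on that cell. Cells with 10 or more Spp1 UMIs were 5.87% (3.62 to 8.91%) of members and 1.64% (1.21 to 2.16%) of Rhov 0 cells in the 10% Tet2-/- library, and 3.16% (0.656 to 8.95%) and 0.738% (0.502 to 1.05%) in the 10% Tet2+/+ library.

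Among the members of the 10% Tet2-/- library, 28 cells with 2 or more Spp1 UMIs were set against 289 with none. The chemokine Ccl3 stood at 5318 CPM (4951 to 5704) in the Spp1 ≥2 cells and 2129 CPM (2049 to 2211) in the Spp1 0 cells, Il1rn at 3629 and 1708 CPM, and the cathepsin gene Ctsb at 933 and 319 CPM. Inhba, the activin A subunit, stood at 286 CPM (206 to 387) in Spp1 ≥2 cells and 59.1 CPM (46.4 to 74.2) in Spp1 0 cells, and at 193 and 50.2 CPM without the highest cell of each set. Mmp8 and Cxcr2 were lower in the Spp1 ≥2 cells, at 116 and 449 CPM, than in the Spp1 0 cells, at 378 and 978 CPM. Macrophage and lysosomal genes differed as well. The 17 monocyte and macrophage genes summed to 1437 CPM (1249 to 1644) in Spp1 ≥2 cells and to 974 CPM (921 to 1031) in Spp1 0 cells. The list includes Fn1, Vcan, Ccr2, C1qa and C1qb, which the rule caps in both sets. Mrc1, outside the rule, had 0 UMIs in the Spp1 ≥2 cells, and so had the capped Fn1 and Vcan. Cd68, a lysosomal glycoprotein gene, stood at 368 and 179 CPM in Spp1 ≥2 and Spp1 0 cells and Apoe, the apolipoprotein E gene, at 511 and 381 CPM, while Csf3r stood at 1035 and 1599 CPM. The macrophage receptor gene Csf1r stood at 54.5 CPM (23.5 to 107) and 67.1 CPM (53.5 to 83.1), and Gpnmb had 0 UMIs in both sets. The part of macrophage RNA in these values was not tested. Median depth was 4949.5 UMIs in Spp1 ≥2 cells and 3796 in Spp1 0 cells. In the 10% Tet2+/+ library the split was 6 against 81 cells. Inhba there had 28 UMIs in Spp1 ≥2 cells, 24 of them in 1 cell, and 48 in Spp1 0 cells, 26 of them in 1 cell, so no comparison is made for it. Mmp8 ran the other way from the 10% Tet2-/- library, at 1258 and 474 CPM in Spp1 ≥2 and Spp1 0 cells. So did Apoe, at 355 and 761 CPM, and Csf3r, at 1967 CPM (1505 to 2527) and 1506 CPM (1385 to 1635). Ccl3, at 4289 and 1956 CPM, Il1rn, Ctsb and Cd68 were higher in the Spp1 ≥2 cells and Cxcr2 lower, as in the 10% Tet2-/- library. The macrophage list summed to 1161 CPM (813 to 1607) in Spp1 ≥2 cells and 1503 CPM (1383 to 1632) in Spp1 0 cells.

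Between the 2 libraries, Spp1 and Tnf were among the genes higher in Rhov ≥2 cells of the 10% Tet2-/- library. Of 1964 genes with at least 50 CPM in either library and 100 UMIs over both, 6.62% (130 genes) were past 1.5-fold higher and 8.3% (163 genes) lower in members of the 10% Tet2-/- library than in members of the 10% Tet2+/+ library. In the larger Rhov 0 pools the same genes were past the limit in 1.88% (37) and 1.63% (32) of cases, and 18 of the higher and 11 of the lower genes were called in the same direction there. The 95 Tet2+/+ members hold 462029 UMIs, against 18047392 in the Tet2+/+ Rhov 0 cells, so the counting error of the member ratios is much larger.

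Spp1 was 4.91-fold higher (3.97 to 6.14) in members of the 10% Tet2-/- library than in those of the 10% Tet2+/+ library, and 2.45-fold higher (2.28 to 2.63) in Rhov 0 cells, and its member values rest on the few high cells described above. Tnf stood at 336 CPM in Tet2-/- members and 134 CPM in Tet2+/+ members, 2.50-fold higher (1.92 to 3.31), and was 1.83-fold higher in Rhov 0 cells. Rhob, an early-response GTPase gene, was 2.24-fold higher (1.76 to 2.87) in Tet2-/- members, against a ratio of 0.92 in Rhov 0 cells. Cyld, which encodes a deubiquitinase that restrains NF-kB signalling, stood at 127 and 45.5 CPM in Tet2-/- and Tet2+/+ members, and Klf10, a zinc-finger repressor, at 178 and 69.3 CPM. Ero1l, an oxidase of the endoplasmic reticulum, stood at 81.6 CPM in Tet2-/- members and 15.2 CPM in Tet2+/+ members, the Tet2+/+ value from 7 UMIs. The other named higher genes were Csta3, Arf2, Itgb7, Atg16l1, Esd and Tnfrsf23, with ratios from 2.27-fold to 4.32-fold. Several of these also rest on few Tet2+/+ UMIs. Without the primary granule cell described below, Csta3, Arf2, Itgb7 and Atg16l1 had 9, 12, 8 and 9 UMIs in Tet2+/+ members. Rhov itself was 1.25-fold higher (1.09 to 1.44) in Tet2-/- members, a value bounded by the cut.

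Of 7 eligible interleukin-1 family genes, 1 was past 1.5-fold between the members of the 2 libraries, namely Il1a at 275 CPM in Tet2-/- members and 143 CPM in Tet2+/+ members, and no eligible chemokine gene was. Il1rn was 1.33-fold (1.23 to 1.46), Ccl3 1.15-fold (1.07 to 1.24), Cxcl2 1.36-fold (1.34 to 1.39) and Il1b 1.06-fold (1.04 to 1.09) higher in members of the 10% Tet2-/- library. In Rhov 0 cells these ratios were 1.46, 1.45, 1.51 and 1.11. Asprv1 was 1.82-fold higher (1.57 to 2.13) in Tet2-/- members and 2.41-fold higher (2.32 to 2.52) in Rhov 0 cells. Of 13 eligible interferon-stimulated genes, 2 were lower in Tet2-/- members (Oasl2 and Slfn4) and none higher, with a median log2 ratio of -0.05, against 5 lower and a median of -0.49 in Rhov 0 cells. Oasl2, a relative of the viral RNA sensors, stood at 94.6 CPM in Tet2-/- members and 236 CPM in Tet2+/+ members.

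The named lower genes rested largely on 1 cell. A single Tet2+/+ member of 23023 UMIs held 834 UMIs of Mpo, Elane, Prtn3 and Ctsg, the primary granule genes of neutrophil precursors, and between 96% and 99.3% of the Tet2+/+ members' UMIs of each. With it, Elane stood at 6.53 CPM in Tet2-/- members and 428 CPM in Tet2+/+ members. Leaving out, in both libraries, the cells with 10 or more UMIs of these genes (that cell, and 19 and 11 Rhov 0 cells of the Tet2-/- and Tet2+/+ libraries), Elane stood at 6.53 CPM in Tet2-/- and 9.11 CPM in Tet2+/+ members. The call was likewise lost for Prtn3, Mpo, Ctsg, Plac8, Npm1, Ppia, Atp5g2 and Ndufa4, and 82 genes were lower in place of 163. Sec61g, Stfa1 and Cd177 remained past the limit. Stfa1, a cysteine protease inhibitor of the stefin A family, stood at 43.1 CPM in Tet2-/- members and 191 CPM in Tet2+/+ members without that cell. Cd177, a neutrophil surface glycoprotein, stood at 35.2 and 107 CPM, and the oxidase subunit gene Cybb at 88.8 and 198 CPM.

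**Figure D5:**
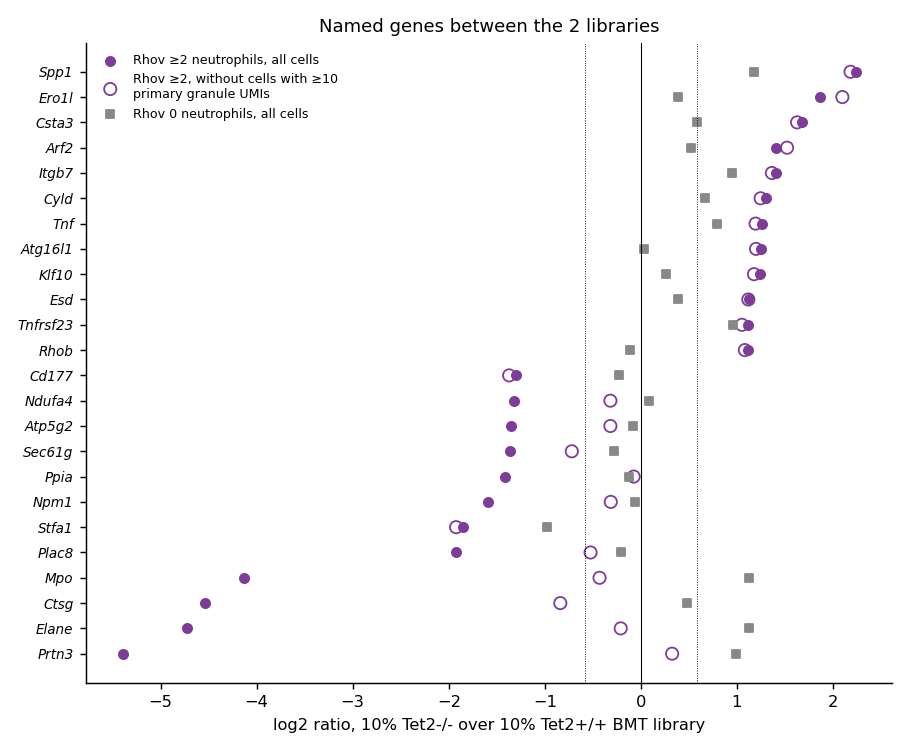
Log2 ratio of (CPM + 10), 10% Tet2-/- over 10% Tet2+/+ BMT library, for the genes named between libraries. Filled circles are Rhov ≥2 neutrophils, open circles the same without cells with 10 or more primary granule UMIs, grey squares Rhov 0 neutrophils, and dotted lines mark 1.5-fold. The 4 lowest genes, Mpo, Ctsg, Elane and Prtn3, lie inside or close to the lines once those cells are left out.

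Rhov ≥2 cells held a larger share of the Spp1, Ccl3 and Il1rn UMIs of the neutrophil pool than of all its UMIs, in both libraries. They held 9.19% of all neutrophil UMIs in the 10% Tet2-/- library and 2.37% in the 10% Tet2+/+ library. Of the pool's Spp1 they held 34.0% in the 10% Tet2-/- library and 6.39% in the 10% Tet2+/+ library, of its Ccl3 25.6% and 10.2%, and of its Il1rn 22.4% and 7.60%. Taking them out changed the ratio between the libraries for all neutrophils to 2.71, against 3.58 with them, for Spp1, and to 1.59, against 1.76, for Il1rn. For Tnf the ratio was 1.92 without and 2.10 with them, and for Ccl4 2.03 and 2.18. The neutrophils with 0 or 1 Rhov UMIs thus kept most of the difference between libraries in these genes.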

How the data were processed

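Gingival cells were profiled with 10x Genomics 3′ v3.1 chemistry, 1 library per group. The deposited matrices hold raw UMI counts per gene and barcode; the submitters' processing notes name Cell Ranger 6.1.2 and mm10, while the file headers give software version 4, and the aligner settings are not given in the sources used here. The libraries hold 93919724 UMIs (10% Tet2-/-) and 100782700 UMIs (10% Tet2+/+), and the kept cells have medians of 5920 and 5009 UMIs. No doublet caller was run; the caps on other cell types' genes limit mixed barcodes, and cells above the 95th percentile of UMIs were left out in an alternative. No per-sample column was left unused (0).

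Counts were summed over cells per library, scaled to CPM and compared as log2(CPM + 10) with Python 3.11.15, numpy 2.4.6, scipy 1.17.1 and pandas 2.3.3. Cells of 1 library are not replicates, so no test was run. Intervals are exact Poisson for a level, exact binomial (Clopper-Pearson) for a share and conditional binomial for a fold, all at 95% and for counting error only; a count of 0 was given the limit of 3 counts. Rhov 0 denotes no Rhov UMI. The named genes were the 15 higher and 15 lower eligible genes with the largest smaller-of-2-libraries ratio for the Rhov contrast, the 12 higher and 12 lower between libraries, and a short list always reported (ranked on log2(CPM + 10), with Xist, Y-linked, ribosomal and rule genes left out); other genes are from 34 gene lists. The members and lists were chosen with earlier results of these data known. Coordinates are mm10 with GENCODE vM21, which matched 32158 of 32285 gene IDs, and promoter windows are RefSeq GRCm38.p6. Some list results are not reported here. The summing and calling steps were checked on simulated counts.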

Additional observations from a re-analysis of the deposited data

Results flagged for a closer look

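A total of 9 genes lay past 1.5-fold in opposite directions in the 2 libraries when Rhov ≥2 were set against Rhov 0 neutrophils, and the difference between libraries was not tested for any of them. On the log2 scale, in the 10% Tet2-/- and then the 10% Tet2+/+ library, Prtn3 gave -4.77 and 1.61, Mpo -3.86 and 1.40, Ctsg -3.54 and 1.48, and Ms4a3 -2.63 and 1.62. These are genes of neutrophil precursors. The others were Nkg7 at -2.44 and 1.00, Stfa2 at -1.37 and 0.66, Dbi at -0.81 and 0.75, Npm1 at -0.78 and 0.74 and the ribosomal gene Rpl36a at -0.60 and 0.61. Without the cells that had 10 or more primary granule UMIs, a choice made after seeing the data, Prtn3 gave 0.08 and -0.75, Mpo 0.15 and 0.05, Ctsg -0.03 and 0.38, and Npm1 -0.16 and -0.11. Stfa2, a stefin gene with near-identical copies, still gave -1.42 and 0.71, but on few UMIs. Among all members, 1 cell held 93.1% of the 29 Stfa2 UMIs of the 10% Tet2+/+ library. In the 10% Tet2-/- library 1 cell held 47.6% of 21 UMIs.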

How the results depend on the processing

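The share of Rhov ≥2 neutrophils was higher in the 10% Tet2-/- library under every alternative run. It was 20.1% and 6.69% in the 10% Tet2-/- and 10% Tet2+/+ libraries at a minimum of 1 Rhov UMI, 4.59% and 0.889% at 3, 4.30% and 0.811% thinned to 2000 UMIs, and 10.3% in Y-only Tet2-/- cells. Genes higher in both libraries numbered 138, against 73 at a minimum of 1 Rhov UMI, 51 in Y-only cells and 89 for Xist-only Tet2-/- with Y-only Tet2+/+ cells. Genes lower in both numbered 52, against 5 and 186 at minimums of 1 and 3, 124 with eligibility at 10 CPM and 25 with median-of-ratios scaling; of the 52, 0 were called at a minimum of 1 and 47 at 3. Between libraries, 130 of 1964 genes were higher, against 85 of 521 in Y-only cells with 26 shared. Of these 130 genes, 59 and 52 were shared at minimums of 1 and 3 Rhov UMIs. The shared number was 85 at 6% S100a8 and S100a9, 71 without the deepest cells, 42 for Xist-only with Y-only cells and 95 without primary granule cells. The lower genes numbered 163, against 75 of 2160 and 51 of 1125 at minimums of 1 and 3 Rhov UMIs with 34 and 18 shared. They were 94 of 1788 at 6% S100a8 and S100a9 (70 shared) and 76 of 1694 without the deepest cells (51 shared). For Xist-only with Y-only cells they were 76 of 783 (52 shared), and without primary granule cells 82 of 1930 (64 shared). With free RNA estimated per library and subtracted, 93 of the 130 higher and 98 of the 163 lower genes were shared. Estimated per group, 127 and 154 were shared. Of 1615 single-gene values, 1196 stayed within the counting error of the main value and 410 moved outside it. The other 9 reversed, meaning that a main value past 1.5-fold changed sign. The reversed log2 ratios between libraries were Ppia at 0.072 (minimum of 3), Prtn3 at 0.29 (6% S100), 0.36 (without the deepest cells) and 0.33 (without primary granule cells), Npm1 at 0.055 (without the deepest cells), and Asprv1 at -0.058 and Atg16l1 at -0.32 (Y-only cells). Within a library, Tnf gave -0.10 in Y-only Tet2-/- cells, and Chil3 gave 2.23 in the 10% Tet2+/+ library with free RNA estimated per group. The causes were not tested. The primary granule and per-group free RNA alternatives were added after seeing the data. No paired analysis was possible because each group has 1 library, and for the same reason no replicate could be left out. The 95 Tet2+/+ members limit the precision of every value between libraries.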

Other observations

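Genes of class II antigen presentation differed between the libraries in their relation to Rhov. The 4 eligible genes of the dendritic list were Cd74, H2-Aa, H2-Ab1 and H2-Eb1, all of class II presentation. All 4 were past 1.5-fold higher in Rhov ≥2 cells of the 10% Tet2-/- library and none in the 10% Tet2+/+ library. The shares over all eligible genes were 10.5% and 8.49%, and the difference was not tested. H2-Aa stood at 207 and 125 CPM in Rhov ≥2 and Rhov 0 cells of the 10% Tet2-/- library and at 167 and 163 CPM in those of the 10% Tet2+/+ library. The whole dendritic list summed to 1093 and 662 CPM in the 10% Tet2-/- library and to 861 and 906 CPM in the 10% Tet2+/+ library. These sums were mostly the class II genes. In Tet2-/- members Cd74, H2-Aa, H2-Ab1 and H2-Eb1 stood at 482, 207, 204 and 193 CPM, and Clec9a and Zbtb46 of the list had 0 UMIs. The part of free RNA or of attached cells in these levels was not tested.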
